A study of Arabidopsis thaliana with 6 samples.

Results

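Shoot apices of *val1* were compared directly with shoot apices of the plants labelled *val2*, with no WT library in the contrast. All genes of chromosomes 1 to 5 that carry an AGI number were considered, and 21095 of 24186 passed a filter on low counts and were tested, out of 24369 entries in the table of counts. There were 2 biological replicates of *val1* (*val1-2*), 2 of *val2* (*val2-1*) and 2 of WT (Col-0), all in the Col-0 background. Both mutants carry a T-DNA insertion, and each is represented by a single allele. The plants were 6 wk old and had grown at 22 °C in short days (SD), with 8 h of light and 16 h of darkness, and RNA came from 0.5 g of dissected apices per sample. The shared WT libraries were used to estimate the spread between replicates and are shown beside the mutants for orientation. The libraries held 22635808 to 33474422 counts. Of the markers of the shoot meristem, the labelled tissue, 6 were tested and had summed levels of 195 to 252 CPM in the 6 libraries.

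*VAL1* and *VAL2* encode related B3-domain proteins that recognise the RY motif and recruit Polycomb complexes to silence genes. They are best known for shutting down the seed program after germination and for silencing the floral repressor *FLC*. In the shoot apex, flowering depends on the balance between such repressors, the gibberellin pathway and the factors that set organ boundaries. The direct contrast asks in which genes the 2 mutants, named for paralogs, differ from each other.

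The genes named by the alleles were examined before all others. *VAL1* (AT2G30470) had 40.3 and 55.4 CPM (counts scaled to library size by TMM) in WT, 12.5 and 15.7 in *val1*, and 32.7 and 39.0 in the libraries labelled *val2*. Both *val1* libraries were below all others, and the difference from the libraries labelled *val2* was -1.34 ± 0.17 (log2 fold change ± SE, adjusted p = 0.000375 in edgeR's quasi-likelihood test). *VAL2* (AT4G32010) had 39.9 and 40.9 CPM in WT, 36.1 and 39.1 in *val1*, and 149.8 and 163.9 in the libraries labelled *val2*. Its level was therefore higher, not lower, in the libraries that carry its name, by 1.96 ± 0.08 on the log2 scale over WT, and the contrast of *val1* against them was -2.06 ± 0.08. Counts over a whole gene do not show whether a full-length transcript or protein is made, and where in *VAL2* these reads lie was not analysed here. Because of this, the group is called the libraries labelled *val2* throughout.

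The 2 sets of mutant libraries were far apart. With an adjusted p below 0.05 and a change of at least 2-fold, 2560 differentially expressed genes (DEGs) were found, 1092 higher in *val1* (5.18% of the genes tested) and 1468 lower (6.96%). With no limit on size, 3748 genes were higher (17.8%) and 3804 lower (18%). Both shares are the background for the counts of list members below, which use the same threshold. Fitted changes of at least 4-fold numbered 283 higher and 380 lower, and those of at least 8-fold 118 and 124. These counts include the 44 higher and 34 lower DEGs at 0 counts in both libraries of a group, whose fitted value is no measured fold. The median of all genes was 0.01, with the middle of the distribution between -0.27 and 0.31. In 1 of the 2560 DEGs the *val1* libraries overlapped with those labelled *val2*. The DEGs were chosen by their difference in these same libraries, so the lack of overlap follows largely from the choice and is no further support. Scaling by library size alone moved the median to 0.15 and the share of DEGs lower in *val1* from 57.3% to 45.9%. Over all called genes, the lower share went from 50.4% to 33.3%. The directions below are relative to the TMM scaling.

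**Figure D1:**
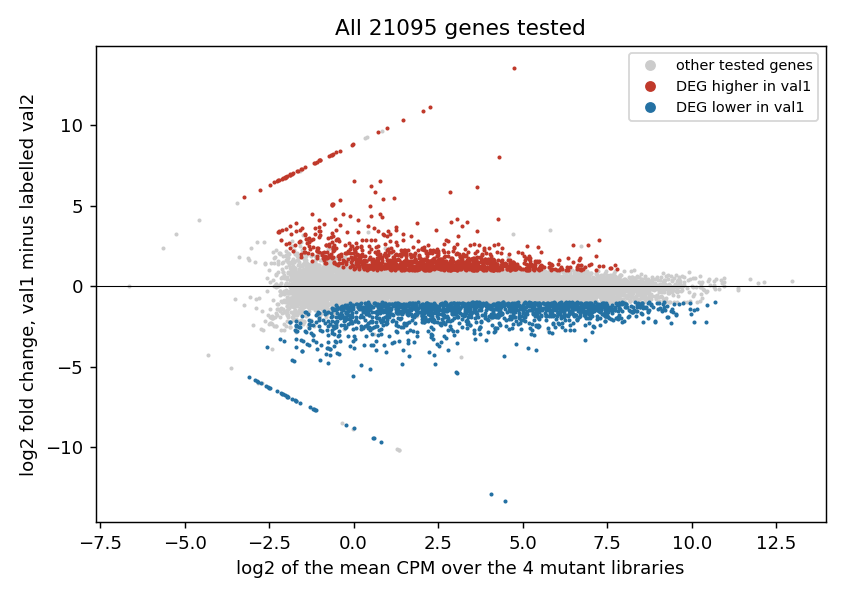
Difference between *val1* and the libraries labelled *val2* (y axis, log2 fold change) against the mean level over the 4 mutant libraries (x axis, log2 CPM). Each point is 1 of the 21095 genes tested, with the 1092 DEGs higher in *val1* in red and the 1468 lower in blue. The slanted rows of points at the left edges are genes at 0 counts in both libraries of a group, whose fitted value is set by the prior count and is no measured fold.

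The WT libraries show on which side of the contrast a gene had moved. Among the DEGs higher in *val1*, WT lay nearer to the libraries labelled *val2* for 834 genes (76.4%) and nearer to *val1* for 258 (23.6%). Among the DEGs lower in *val1*, WT lay nearer to the libraries labelled *val2* for 1381 (94.1%) and nearer to *val1* for 87 (5.9%). The median DEG higher in *val1* was 1.27 above WT in *val1* and 0.23 below WT in the libraries labelled *val2* (median -0.23). The median DEG lower in *val1* was at -1.71 from WT in *val1* and at -0.16 in the libraries labelled *val2*. All 3 contrasts share libraries, so these positions are a description.

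The *FLC* clade of MADS-box repressors held 6 tested genes, of which 4 were higher in *val1* and none lower, with a median of 0.98. *FLC* had 27.1 and 22.0 CPM in the *val1* libraries, 5.20 and 6.54 in those labelled *val2*, and 5.08 and 5.40 in WT. Only the *val1* libraries were high, and the difference was 2.06 ± 0.16 (adjusted p = 1.8e-05). *MAF5* had 16.6 and 17.5 CPM in the *val1* libraries, 1.57 and 0.99 in those labelled *val2* and 0.95 and 1.20 in WT, a difference of 3.73 ± 0.22. *MAF4* differed by 1.56 ± 0.28, and *MAF3* by 0.40 with an adjusted p of 0.0469, a call that was lost without any 1 of the 6 libraries (adjusted p from 0.0523 to 0.203) and in DESeq2 (0.167). *MAF2*, at -0.18, and *FLM*, at -0.05, did not pass the test. The clade is thus uneven, and its largest differences were at *MAF5*, *FLC* and *MAF4*.

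Other repressors gave smaller differences, with 5 of 11 higher, 1 lower and a median of 0.26. *AGL15*, an embryo MADS-box gene that delays flowering when overexpressed, had 12.03 and 10.8 CPM in *val1* and 4.00 and 3.20 in the libraries labelled *val2*, a difference of 1.66 ± 0.20 (adjusted p = 0.000252). *TOE1*, an AP2-like repressor of *FT*, had 90.5 and 83.2 CPM in *val1* and 45.5 and 41.2 in the libraries labelled *val2*. *TEM1*, a repressor of *FT* and of gibberellin synthesis, went the other way, with 103 and 99.98 CPM in *val1* against 170 and 207, both below the 279 and 396 of WT. *SVP*, the partner of *FLC*, was at 0.09 and did not pass the test.

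Among floral integrator and identity genes, a list that also holds the repressor *TFL1*, 3 of 9 tested were lower in *val1* and 1 was higher. The higher one was the MADS-box gene *XAL2*, with 1.78 and 1.98 CPM in the *val1* libraries, 0.95 in each of those labelled *val2* and 1.35 and 1.97 in WT (0.98, adjusted p = 0.0384), a call that was lost in DESeq2 (adjusted p = 0.123) and when any 1 of the 4 mutant libraries was left out (adjusted p from 0.0836 to 0.143), while *TFL1* did not pass the test (0.44, adjusted p = 0.252). *FD*, the bZIP partner of *FT* in the apex, had 3.97 and 3.34 CPM in the *val1* libraries, 9.35 and 9.97 in those labelled *val2* and 6.91 and 8.47 in WT, a difference of -1.41 ± 0.17 (adjusted p = 0.000237). *SOC1*, an integrator repressed by *FLC*, had 1.46 and 2.17 CPM against 3.51 and 3.20, and its call (-0.87 ± 0.25, adjusted p = 0.0244) was lost when the first *val1* replicate or either replicate labelled *val2* was left out (adjusted p from 0.0726 to 0.113). *LFY*, the floral identity regulator, was near the detection limit in all libraries, with 0 and 0.23 CPM against 0.46 and 0.65, and did not pass the test. *FUL*, which acts beside *SOC1*, was at -0.19 ± 0.35 and did not pass it either. *SPL13A* and *SPL13B*, near-identical targets of miR156 whose reads may be split between them, were both lower in *val1*, at -1.36 and -1.37. Of the 11 tested *SPL* targets 8 were not called, 9.09% were higher and 18.2% lower, beside 17.8% and 18% of all genes tested.

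Of 13 organ boundary genes tested, 7 were higher in *val1* and none was lower, and the median was 0.78. *BOP1* and *BOP2* encode BTB-ankyrin proteins that act at the leaf base and delay flowering. *BOP1* had 8.35 and 7.37 CPM in the *val1* libraries, 3.48 and 2.52 in those labelled *val2*, and 3.30 and 2.88 in WT, a difference of 1.38 ± 0.21 (adjusted p = 0.000872). *BOP2* had 35.3 and 31.1 CPM in the *val1* libraries, 15.04 and 10.1 in those labelled *val2*, and 15.2 and 11.9 in WT, a difference of 1.40 ± 0.19 (adjusted p = 0.0005). For both genes, the libraries labelled *val2* overlapped with WT. *ATH1*, a homeobox activator of *FLC*, had 64.8 and 61.2 CPM in the *val1* libraries, 39.7 and 33.8 in those labelled *val2* and 27.0 and 26.5 in WT, so that it was above WT in both mutants and further so in *val1* (0.78 ± 0.09). *LSH3*, *LSH4* and *CUC1*, which mark the boundary between meristem and organ, were also higher in *val1*, by 1.60, 0.71 and 1.18. The call of *CUC1*, at 2.39 and 1.88 CPM in *val1*, was lost in DESeq2 (adjusted p = 0.071) and without the first *val1* library or either library labelled *val2* (from 0.0992 to 0.131).

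**Figure D2:**
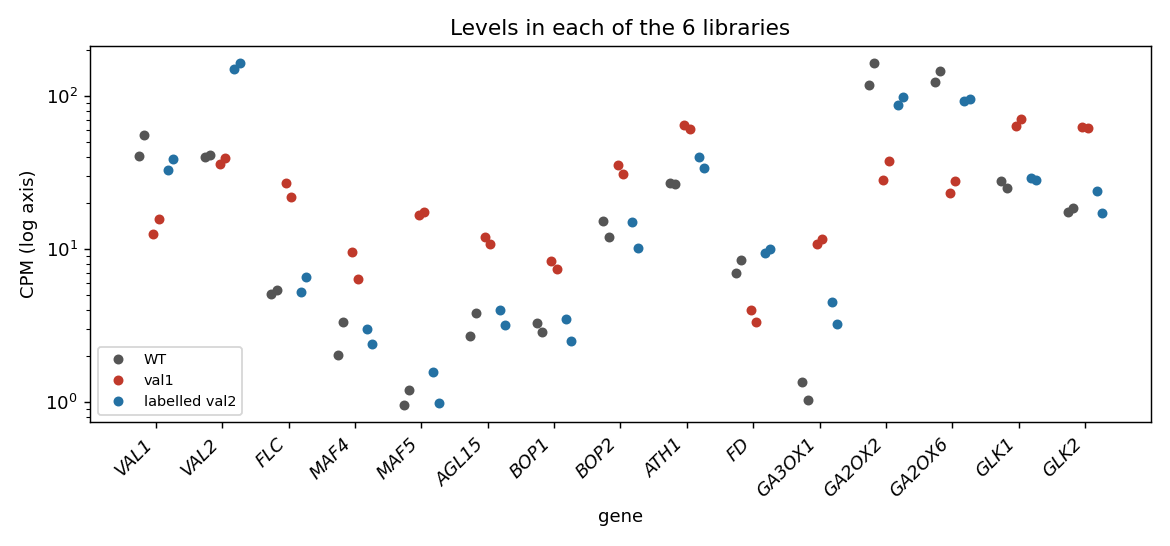
Levels of 15 genes (x axis) in each of the 6 libraries (y axis, CPM on a log axis), 1 point per library, with WT in grey, *val1* in red and the libraries labelled *val2* in blue. The *val1* libraries stand below all others at *VAL1*, *GA2OX2* and *GA2OX6* and above all others at *FLC*, *MAF5*, *BOP1* and *BOP2*, while *VAL2* is high only in the libraries labelled *val2*.

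The DNA around these genes holds the RY motif that VAL proteins recognise, and 4 stretches are shown because they hold it in genes that were higher in *val1*. The RY motif was searched as TGCATG, which reads CATGCA on the opposite strand, and is in capitals. The *BOP1* and *BOP2* sequences are the 50-base oligos of the study's own binding assay. They match the reference (TAIR10.1) exactly once each, at chr3:21148745-21148794 on the plus strand and chr2:17239652-17239701 on the plus strand, and both lie in an intron of the gene. The *FLC* stretch is at chr5:3178816-3178878 on the minus strand, in an intron, 583 and 616 bases into the transcribed region for the 2 motifs it holds, and the gene holds 3 in all. The *AGL15* stretch is the 250 bases before the gene start, at chr5:4450959-4451208 on the minus strand, with 2 motifs.
BOP1: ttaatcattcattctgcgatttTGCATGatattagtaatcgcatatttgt
BOP2: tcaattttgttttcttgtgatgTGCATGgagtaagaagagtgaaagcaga
FLC: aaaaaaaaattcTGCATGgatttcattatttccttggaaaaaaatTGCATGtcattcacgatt
AGL15: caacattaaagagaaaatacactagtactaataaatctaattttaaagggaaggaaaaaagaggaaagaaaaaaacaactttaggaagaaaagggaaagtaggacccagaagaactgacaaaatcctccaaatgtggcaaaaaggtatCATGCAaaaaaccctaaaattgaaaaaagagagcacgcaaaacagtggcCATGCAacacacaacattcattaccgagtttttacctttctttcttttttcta

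The motif was then counted around the start of every gene tested, in windows of 300 bases. In the window from 250 bases before the gene start to 50 bases from the start onward, it stood in 1782 of 21094 genes, or 8.4%. Among the DEGs higher in *val1* it stood in 206 of 1092, or 18.9%, and among the DEGs lower in *val1* in 124 of 1468, or 8.4%. Among the DEGs higher in *val1* by at least 4-fold the share was 22.3%, and among genes higher by less than 2-fold it was 9.2%. The median DEG higher in *val1* was at 3.91 CPM and the median gene tested at 16.7, so the share was taken again between 1 and 10 CPM, where it was 19.2% for DEGs higher in *val1*, 7.6% for DEGs lower in *val1* and 8.7% for genes not called. The G-box CACGTG, which reads the same on both strands, served as a second motif and stood in 8.6% of all genes, 8.4% of the DEGs higher in *val1* and 10.1% of the DEGs lower in *val1*. A match of letters is a description and not a bound site. The 250 bases before *FLC*, *MAF5*, *DOG1*, *GA3OX1*, *GLK2*, *AT1G02770*, *IDH-III*, *BOP1* and *BOP2* held no RY motif, and those before *GA2OX6*, which was lower in *val1*, held 2 that overlap.

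**Figure D3:**
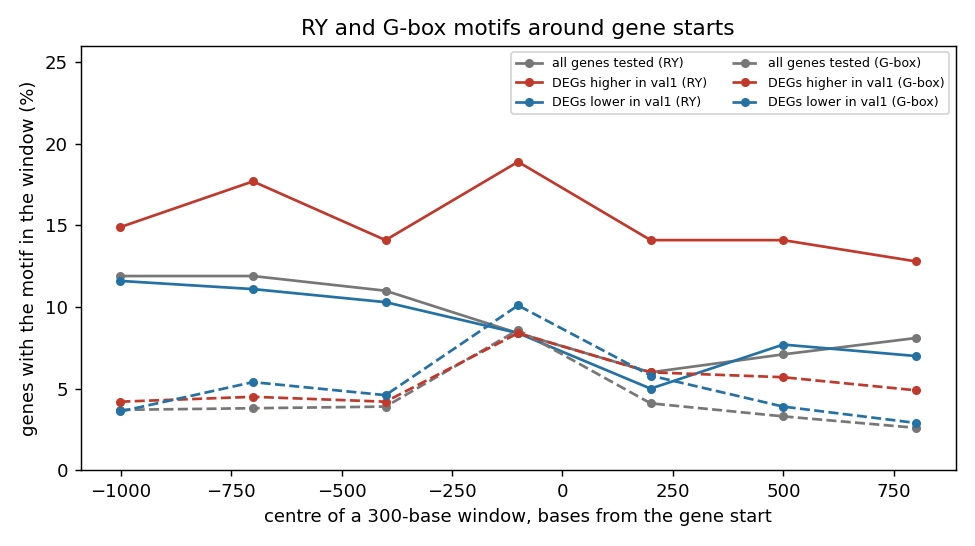
Share of genes with the RY motif (solid lines) or the G-box (broken lines) in 300-base windows, by the distance of the window's centre from the gene start (x axis, bases), for all genes tested and for the DEGs in each direction. The RY share of DEGs higher in *val1* was 18.9% at the gene start and between 12.8% and 17.7% in the other windows, above that of all genes in each, while the DEGs lower in *val1* stayed near all genes. Their G-box share, for DEGs higher in *val1*, was 8.4% at the gene start, beside 8.6% of all genes, and above that of all genes in the other windows.

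The split of the DEGs by WT was carried over to the motif. Among DEGs higher in *val1* whose level in the libraries labelled *val2* was within 0.5 of WT on the log2 scale while *val1* was at least 2-fold away, 92 of 491 (18.7%) had it. Among those with *val1* within 0.5 of WT and the libraries labelled *val2* at least 2-fold away, which were thus below WT, 16 of 88 (18.2%) had it. Both shares stood above the 8.4% of all genes. In the 3 windows that follow inside the transcribed side the former set had the motif in 14.7%, 12.8% and 14.5% of genes and the latter in 9.1%, 6.8% and 4.5%, where all genes had it in 6.0%, 7.1% and 8.1%. For DEGs lower in *val1*, the same split at the gene start gave 70 of 896 (7.8%) with *val1* apart from WT. With the libraries labelled *val2* apart, and thus above WT, it gave 2 of 32 (6.2%). Neither share stood above that of all genes. The differences between the sets were not tested.

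Gibberellin enzymes differed in opposite directions along the pathway. Of 8 tested synthesis genes, 3 were higher in *val1* and none lower, and of 5 tested breakdown genes, 3 were lower and none higher. *GA3OX1*, which makes the bioactive hormone, had 10.7 and 11.6 CPM in the *val1* libraries, 4.49 and 3.23 in those labelled *val2* and 1.35 and 1.03 in WT. Its level was thus ordered WT, labelled *val2*, *val1*, with a difference of 1.52 ± 0.20 between the mutants (adjusted p = 0.000438). *GA20OX1* was at 1.51 ± 0.44 (adjusted p = 0.0261) and lost its call without the second replicate of *val1* or of the libraries labelled *val2* (0.205 and 0.163). *GA20OX2* was at 2.76 from under 1 CPM in all libraries, and its adjusted p of 0.0466 became 0.112 in DESeq2, 0.0711 with the replicate block and between 0.067 and 0.24 without any 1 library except the first labelled *val2*. *GA2OX6*, which inactivates gibberellin, had 23.1 and 27.7 CPM in the *val1* libraries, 92.5 and 95.0 in those labelled *val2* and 124 and 145 in WT, a difference of -1.88 ± 0.11. *GA2OX2* had 28.4 and 37.6 CPM in *val1* against 86.6 and 98.4. *GA2OX3* had 0 counts in both *val1* libraries and 28 and 26 in those labelled *val2*, at least 7.98-fold lower with a floor of 3 counts per library. The DELLA gene *GAI*, a repressor of gibberellin responses, was higher in *val1* (36.7 and 41.5 CPM against 14.2 and 13.1). The gibberellin receptor gene *GID1B* was lower (7.90 and 7.98 CPM against 17.9 and 18.7).

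*RGA1*, another DELLA gene, set the libraries labelled *val2* apart instead. It had 148 and 163 CPM in the *val1* libraries, 85.6 and 79.0 in those labelled *val2* and 141 and 160 in WT. The *val1* and WT libraries overlapped and those labelled *val2* were lower, with 0.92 ± 0.09 between the mutants.

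Regulators of greening were among the most uniform groups. Of 8 tested, 7 were higher in *val1*, and the median was 1.64. *GLK1* and *GLK2*, transcription factors for chloroplast development, had 64.1 and 70.1 CPM and 63.0 and 61.4 CPM in *val1*, against 28.9 and 28.2 CPM and 23.9 and 17.3 CPM in the libraries labelled *val2*. *BBX15* had 24.5 and 23.7 CPM in *val1* against 4.52 and 4.90, and 5.16 and 5.07 in WT, a difference of 2.35 ± 0.12. *BBX16* had 19.0 and 15.2 CPM in the *val1* libraries, 4.89 and 5.65 in those labelled *val2* and 12.7 and 12.2 in WT, so that WT lay between the mutants. *GNL*, a GATA factor that promotes greening, had 6.65 and 4.83 CPM in the *val1* libraries, 1.35 and 0.75 in those labelled *val2* and 2.38 and 3.39 in WT, in the same order.

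The photosynthetic genes showed the same sign with small sizes. Of 19 light-harvesting genes 16 were higher in *val1* and none lower (median 0.38), and of 24 nuclear photosystem genes 16 were higher and none lower (median 0.30). Among the enzymes of chlorophyll synthesis, 11 of 19 were higher and 2 were lower. *CAO*, which makes chlorophyll b, had 138 and 130 CPM in *val1* against 80.0 and 72.7. *HEMA2*, an isoform of the enzyme at the entry to the pathway, had 52.6 and 48.4 CPM in the *val1* libraries, 174 and 216 in those labelled *val2*, and 273 and 317 in WT. It therefore ran against its pathway, at -1.95 ± 0.12. *CAB1*, a light-harvesting protein gene, had 9450 and 8627 CPM in the *val1* libraries, 7376 and 6770 in those labelled *val2* and 9381 and 8933 in WT, and WT overlapped with *val1*. All 5 markers of photosynthetic mesophyll were higher in *val1*, with summed levels of 8653 to 8948 CPM in *val1*, 6201 to 6462 in the libraries labelled *val2* and 7106 to 7633 in WT. In bulk tissue, more cells of a type and more RNA per cell cannot be told apart, and the part of mesophyll cells in these differences was not tested. Of the markers of other cell types, 2 of 6 for the shoot meristem (*CLV1* and *PNY*), 1 of 4 for guard cells (*FMA*), 1 of 3 for the epidermis (*PDF2*) and 1 of 2 for roots (*NAS1*) were higher in *val1*, and none of these was lower. The summed root markers were at 103 to 106 CPM in *val1*, 63.8 to 78.7 in the libraries labelled *val2* and 35.4 in both WT libraries, nearly all of it from *NAS1*, a nicotianamine synthase gene. The summed guard cell markers were at 9.44 to 14.2, 6.77 to 7.72 and 7.83 to 8.73 CPM in the same order, and those of the epidermis overlapped between the mutants. The call of *PDF2* was lost without the second *val1* library or either library labelled *val2* (adjusted p from 0.0798 to 0.146). The part of these cells in the differences was not tested. The 3 phloem, 4 xylem and 3 trichome markers tested were not called in either direction.

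Several lists of leaf development and epidermal genes were also on the higher side. Of 14 stomatal lineage genes, 10 were higher in *val1* and none lower (median 0.99). *SPCH*, which starts the lineage, had 18.8 and 18.9 CPM in *val1* and 9.50 and 10.7 in the libraries labelled *val2*. *TMM*, a receptor-like protein that spaces stomata, had 15.5 and 18.5 CPM in the *val1* libraries, 5.14 and 5.28 in those labelled *val2* and 9.18 and 9.60 in WT, so that WT lay between the mutants. *POLAR*, a marker of asymmetric divisions, was at 2.03 ± 0.19 with WT between the mutants as well. Of 16 leaf polarity genes, 8 were higher and none lower, with a median of 0.19. The list was led by *KAN2*, *KAN1* and *AS2* at 1.35, 1.20 and 1.04, which promote the abaxial side or restrain meristem genes in leaves. Of 21 *TCP* genes, 10 were higher and 1 lower, and *TCP7* had 48.8 and 55.8 CPM in *val1* against 20.8 and 21.1.

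Several smaller families followed the same direction. Of 7 *GLUTAMINE DUMPER* genes, which affect amino acid export, 4 were higher in *val1* and none lower, and *GDU3* had 13.5 and 12.7 CPM against 2.65 and 2.38. Of 8 type-A response regulators of cytokinin signalling, 5 were higher and none lower (median 0.77). Of 17 flavonoid genes, 10 were higher and none lower (median 0.75), and *F3H*, an early enzyme of the pathway, had 66.0 and 52.6 CPM in the *val1* libraries, 23.9 and 23.7 in those labelled *val2* and 16.7 and 19.4 in WT. Of 51 *SAUR* genes, which respond to auxin, 17 were higher and 5 lower (median 0.71). *SAUR50* had 10.6 and 11.7 CPM in *val1* against 2.58 and 2.55, and *SAUR35* had 0.36 and 0.49 against 4.40 and 4.94. Of 22 expansin genes 12 were higher and 4 lower, and the subfamilies split. All 4 lower members were expansin-like genes, from *EXLB3* at -1.32 to *EXLA1* at -2.22 ± 0.10, while the alpha-expansins *EXPA8* and *EXPA10* were at 2.54 and 1.74.

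**Figure D4:**
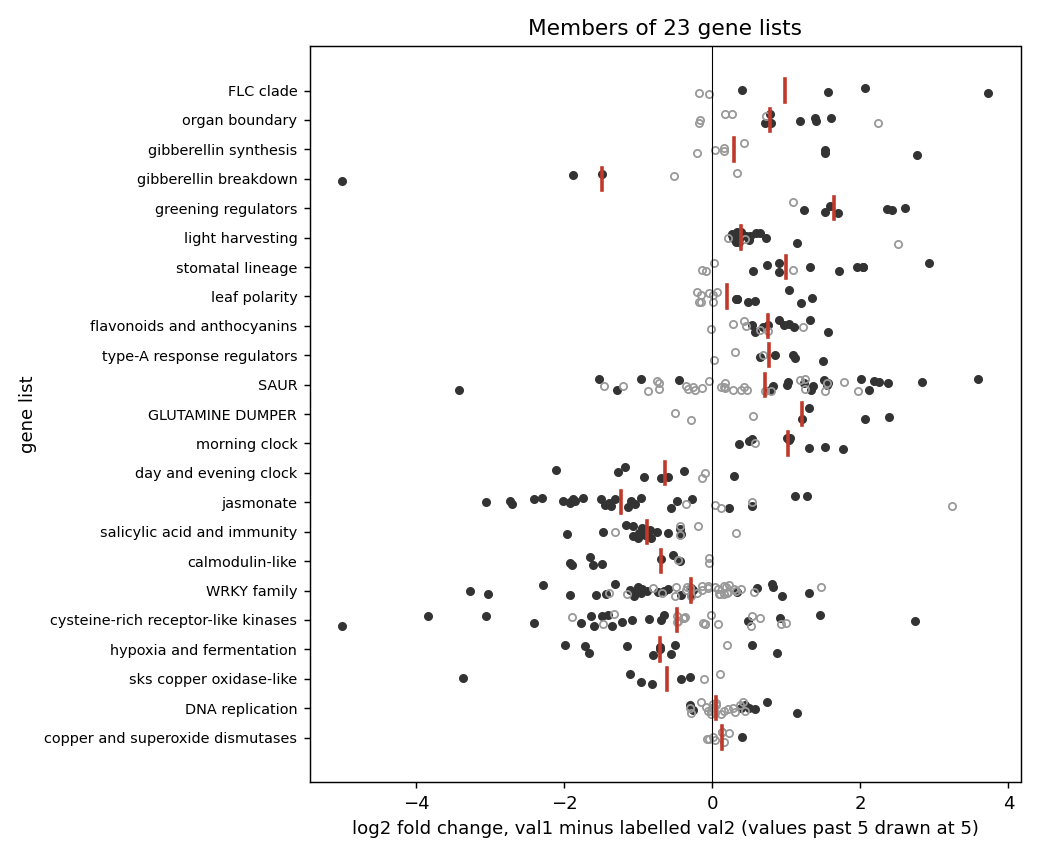
Log2 fold change of *val1* against the libraries labelled *val2* (x axis) for the tested members of 23 gene lists (y axis), chosen for display out of 46. The lists not drawn include heat shock, *XTH* and Aux/IAA genes, with called members in both directions and medians of 0.03, -0.01 and 0.08. They also include lists called in 1 direction only, such as nuclear photosystem genes (median 0.30). Filled points passed the test, open points did not, values past 5 are drawn at 5, and the red bars are list medians, from 1.64 for greening regulators to -1.49 for gibberellin breakdown, beside 0.01 for all genes.

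Jasmonate genes were mostly lower in *val1*. Of 32 tested, 23 were lower in *val1* and 4 higher, and the median was -1.23. Jasmonate is the wound hormone, and the list covers its synthesis, breakdown and signalling. *OPR3*, a peroxisomal enzyme of its synthesis, had 249 and 261 CPM in the *val1* libraries, 909 and 1027 in those labelled *val2* and 1041 and 1210 in WT, a difference of -1.92 ± 0.10 (adjusted p = 3.18e-06). *AOC3*, another synthesis gene, had 251 and 288 CPM in *val1* against 932 and 1060, and its relatives *AOC1* and *AOC2*, which are similar enough to share reads, were at -2.74 and -2.71. *CYP94B3*, which inactivates the hormone, had 49.2 and 49.97 CPM in the *val1* libraries, 251 and 278 in those labelled *val2* and 266 and 301 in WT. The repressor genes *JAZ8* and *JAZ10* had 43.4 and 40.3 CPM and 72.7 and 83.9 CPM in *val1*, against 195 and 217 CPM and 289 and 342 CPM. WT had 218 and 230 CPM of *JAZ8* and 335 and 400 of *JAZ10*, so for both only *val1* was far below WT. *MYC2*, the main activator of the pathway, had 4.37 and 0.39 CPM in WT, 0 and 95.2 in *val1* and 9.94 and 0 in the libraries labelled *val2*, so replicates disagreed and no direction can be given.

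Salicylic acid and immunity genes were lower in *val1* for 15 of 20 tested, with none higher and a median of -0.88. *EDS1* and *PAD4*, partners in basal resistance, had 53.2 and 59.6 CPM and 36.9 and 31.6 CPM in *val1*, against 115 and 121 CPM and 72.6 and 71.1 CPM. *SARD1*, an activator of salicylic acid synthesis, had 94.8 and 89.6 CPM in the *val1* libraries, 277 and 235 in those labelled *val2* and 172 and 131 in WT. Its difference of -1.47 ± 0.13 thus had WT between the mutants.

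Of 59 *WRKY* genes, 23 were lower in *val1* and 6 higher. *WRKY18*, a regulator of defence, had 224 and 229 CPM in the *val1* libraries, 1052 and 1158 in those labelled *val2* and 1126 and 1226 in WT (-2.28 ± 0.08). *WRKY38* had 11.3 and 11.3 CPM in the *val1* libraries, 42.05 and 43.5 in those labelled *val2* and 10.3 and 12.7 in WT, and *WRKY62* had 2.43 and 2.14 CPM, 19.4 and 24.6 CPM and 6.55 and 7.66 CPM. These 2 genes were high in the libraries labelled *val2*. Of 11 calmodulin-like genes 8 were lower and none higher, and *TCH3*, a touch-induced calcium sensor, had 333 and 357 CPM in the *val1* libraries, 993 and 1123 in those labelled *val2* and 1721 and 1848 in WT. Of 38 cysteine-rich receptor-like kinase genes, 15 were lower and 4 higher. *CRK11* was low only in *val1* (21.9 and 20.1 CPM against 67.5 and 76.1, with 91.0 and 87.6 in WT), and *CRK23* was high only in the libraries labelled *val2* (16.9 and 15.8 CPM against 0.69 and 0.13, with 1.11 and 1.00 in WT).

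Stress genes outside immunity followed in part. Of 12 hypoxia and fermentation genes 9 were lower in *val1* and 2 higher. *PDC1*, the pyruvate decarboxylase of fermentation, had 14.2 and 17.0 CPM in the *val1* libraries, 28.9 and 40.6 in those labelled *val2* and 145 and 157 in WT, so that both mutants were far below WT and *val1* further. Of 25 cold and abscisic acid genes 10 were lower and 4 higher. *RD29A*, a dehydration marker, had 158 and 199 CPM in the *val1* libraries, 671 and 899 in those labelled *val2* and 925 and 1203 in WT. *CBF2*, an activator of cold genes, went the other way, with 79.3 and 74.05 CPM in *val1* against 44.1 and 30.8. Of 17 sugar starvation genes 8 were lower and 3 higher. *TPPG*, a trehalose phosphate phosphatase gene, had 29.1 and 28.0 CPM in the *val1* libraries, 117 and 130 in those labelled *val2* and 170 and 207 in WT. Of the 8 *sks* genes, which resemble copper oxidases, 6 were lower, and *sks9* had 22.1 and 18.5 CPM in *val1* against 189 and 229.

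The clock genes separated the mutants in a different way. Of 10 morning genes 9 were higher in *val1* and none lower (median 1.02), and of 10 day and evening genes 7 were lower and 1 higher (median -0.64). *CCA1*, a morning repressor at the core of the clock, had 180 and 137 CPM in the *val1* libraries, 49.1 and 44.4 in those labelled *val2* and 280 and 271 in WT, a difference of 1.76 ± 0.13 (adjusted p = 1.34e-05). *LHY*, its partner, had 333 and 277 CPM in the *val1* libraries, 128 and 120 in those labelled *val2* and 459 and 432 in WT. Both mutants were thus below WT for these genes, the libraries labelled *val2* by more, and the morning list had medians of -0.52 in *val1* and, against the same WT, of -1.13 in the libraries labelled *val2*. *TOC1*, an evening repressor of *CCA1* and *LHY*, had 38.6 and 33.2 CPM in the *val1* libraries, 73.5 and 89.6 in those labelled *val2* and 75.7 and 76.8 in WT, so that here *val1* stood apart. *GI*, an afternoon gene of photoperiodic flowering, had 33.7 and 34.0 CPM in the *val1* libraries, 48.97 and 53.2 in those labelled *val2* and 39.3 and 43.6 in WT. The hour at which each genotype was harvested is not given in the sources used here, so hour and genotype cannot be told apart for genes that cycle over the day.

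**Figure D5:**
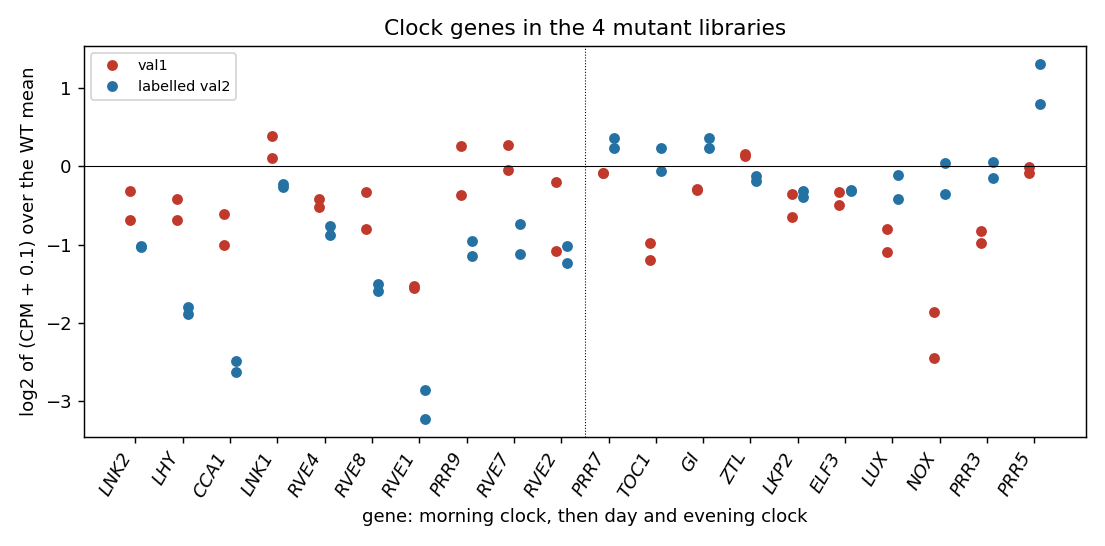
Log2 level of 20 clock genes in the 4 mutant libraries relative to the WT mean (y axis, CPM with 0.1 added), morning genes left of the dotted line. The libraries labelled *val2* lie below those of *val1* at *CCA1*, *LHY* and *RVE1* and above them at *TOC1*, *NOX* and *GI*.

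DNA replication genes had 6 of 29 higher in *val1* (20.7%) and 2 lower (6.9%), beside 17.8% and 18% of all genes tested. Their median was 0.05 between the mutants, while the medians against WT were 0.96 for *val1* and 0.81 for the libraries labelled *val2*. *FSD1*, an iron superoxide dismutase gene, had 14.1 and 12.1 CPM in the *val1* libraries, 14.5 and 10.96 in those labelled *val2* and 0.75 and 0.84 in WT, and the contrast of the mutants was 0.04 ± 0.16. *ESM1*, which steers glucosinolate breakdown, had 1221 and 1246 CPM in the *val1* libraries, 897 and 800 in those labelled *val2* and 176 and 155 in WT, so that most of its distance from WT was common to both mutants and 0.54 ± 0.08 was not. Histone genes had 8 of 29 higher (27.6%) and 3 lower (10.3%). Their median was 0.07 between the mutants, and the medians against WT were 0.47 for *val1* and 0.41 for the libraries labelled *val2*. Genes for copper homeostasis and superoxide dismutases, the list that holds *FSD1*, had 1 of 9 higher and none lower (median 0.13), and their medians against WT were 0.08 and -0.005.

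Seed genes, the classic targets of VAL proteins, gave a mixed picture. Of 18 listed genes 7 were tested, and 2 were higher and 2 lower in *val1* (28.6% each). Of all genes tested, 17.8% were higher and 18% lower. *DOG1*, a regulator of seed dormancy, had 3.44 and 3.12 CPM in the *val1* libraries, 0.22 and 0.48 in those labelled *val2* and 0.08 and 0.39 in WT, a difference of 3.25 ± 0.51 (adjusted p = 0.00123). *SESA1*, a storage albumin gene, was lower in *val1*, with 8.02 and 10.3 CPM against 22.4 and 26.4. Of 22 Polycomb and VAL genes 2 were higher (9.09%) and 5 lower (22.7%), beside the same shares of all genes. The lower ones include *VAL1* and *VAL2* themselves. The 2 higher ones were *BMI1A* and *BMI1B*, subunits of Polycomb repressive complex 1, at 35.5 and 34.7 CPM and 22.8 and 22.2 CPM in *val1*, against 14.8 and 16.7 CPM and 10.9 and 11.5 CPM. *VAL3*, the third member of the family, was at 0.13 and did not pass the test.

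The genes with the largest differences were then inspected. Among DEGs of at least 5 CPM on average over the mutant libraries with no overlap between groups, 504 were higher and 915 lower in *val1*, and the 15 most different in each direction were looked at. *AT1G02770*, annotated as an uncharacterized protein, had 37.0 and 42.0 CPM in the *val1* libraries, 0.22 and 0.07 in those labelled *val2* and 0.20 and 0.16 in WT, a difference of 8.05 ± 0.25. *IDH-III*, annotated as a subunit gene of isocitrate dehydrogenase, had 14.7 and 13.5 CPM in *val1* and no more than 0.27 in any other library. *AT2G37670*, a WD40-repeat gene, *AT5G17780*, an alpha/beta-hydrolase gene, *NIT4*, a nitrilase gene, and *AT1G16705* were likewise high in *val1* and at a few CPM or less elsewhere. *GRP9*, a glycine-rich protein gene, had 264 and 272 CPM in *val1* against 47.6 and 24.7. In the lower direction, *ABR1*, an ERF factor of abscisic acid responses, had 4.62 and 5.48 CPM in the *val1* libraries, 67.5 and 92.2 in those labelled *val2* and 182 and 276 in WT. *AT5G01380*, a homeodomain-like gene, had 1.499 and 2.56 CPM in *val1* against 33.4 and 50.5. *AT5G03390*, *BON3*, *CES101* and *AT2G45930* were each under 2 CPM in *val1* and between 8 and 18 CPM in the 4 other libraries.

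Not all of the largest differences came from *val1*. *AT4G36140*, annotated as a TIR-NBS-LRR disease resistance gene, had 24.6 and 24.95 CPM in *val1*, 29.7 and 33.4 in WT and 0.34 and 0.34 in the libraries labelled *val2*. *AT4G20480* and *AT4G38280* were low in the same libraries (1.63 and 2.45 CPM, and 1.66 and 1.80 CPM) while *val1* and WT were between 36.3 and 37.3 CPM, and between 13.6 and 15.7 CPM. *AT4G24420*, an RNA-binding protein gene, was high only there, at 9.50 and 10.8 CPM against at most 0.45 in the 4 other libraries. The lncRNA *AT4G39838* had 0 counts in both libraries labelled *val2*, 28.9 and 77.5 CPM in *val1* and 139 and 162 in WT, at least 547-fold higher in *val1* with a floor of 3 counts per library. These genes are all on chromosome 4. Over all DEGs, 120 had *val1* within 0.5 of WT on the log2 scale and the libraries labelled *val2* at least 2-fold away. Of these 44 were on chromosome 4, or 1.35% of its tested genes, against 0.36% to 0.53% on the 4 other chromosomes. They lay between 6 and 19 Mb, from 1 to 8 in each window of 1 Mb, with 1 in each window from 13 to 16 Mb, where the one at 15 to 16 Mb was *VAL2* itself.

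In all, 44 DEGs higher in *val1* had 0 counts in both libraries labelled *val2*, and 34 lower ones had 0 in both *val1* libraries. Such 0 counts were not counted over all genes tested. With the floor of 3 counts the bound fell to 1.96-fold at *AT2G44250* (3 and 8 counts in *val1*) and 1.98-fold at *AT3G04200* (3 and 10 in the libraries labelled *val2*). In 41 tested genes 1 replicate had 0 counts and the other of its group at least 50, and 2 of these were DEGs. The glycine-rich protein gene *AT5G61660* had 59.5 and 29.4 CPM in the libraries labelled *val2* and 0 in *val1*, at least 406-fold lower, but 0 and 33.9 in the WT replicates. *AT5G28919* had 32.8 and 34.4 CPM in the same libraries and 0 in *val1*, at least 307-fold lower, and 31.4 and 0 in WT. The WT replicates of both genes thus disagreed, and the call of *AT5G28919* was lost without any 1 of the 4 mutant libraries (adjusted p from 0.0523 to 0.0671) and that of *AT5G61660* without the first library labelled *val2* or the second of *val1* (0.0538 and 0.0556).

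Genes beside the insertion sites were looked at for local differences. Within 100 kb of *VAL1*, 46 genes were tested, 9 were higher and 6 lower in *val1*, and the median was 0.11. Within 100 kb of *VAL2*, 43 were tested, 8 were higher and 6 lower, and the median was -0.06. Over all genes tested, 17.8% were higher and 18% lower. The neighbours of *VAL1* include *BMI1A*, the trichome repressors *TCL1*, *TCL2* and *ETC2*, all higher in *val1* at a few CPM or less, and *RPT2*, a phototropism gene with 137 and 146 CPM in the *val1* libraries, 61.1 and 51.9 in those labelled *val2* and a WT mean of 144. The calls of *TCL1* and *TCL2* were lost in DESeq2 (adjusted p = 0.0854 and 0.052), and those of all 3 repressors when single libraries were left out (adjusted p from 0.052 to 0.197). These were either library labelled *val2* or the second of *val1* for *ETC2*, either library labelled *val2* or the first of *val1* for *TCL2*, and any library but the first labelled *val2* for *TCL1*. The neighbours of *VAL2* include *WRKY18* and *POLAR*, and *CYP82C3*, a cytochrome P450 gene with 0.20 and 0.36 CPM in the *val1* libraries, 4.77 and 7.22 in those labelled *val2* and a WT mean of 6.94.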

How the data were processed

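RNA-seq of polyA RNA (stranded libraries, 150 bp paired-end) was made from 2 samples of each genotype, which the study describes as biological replicates. For the deposited table, the authors used cutadapt for trimming, STAR for mapping (TAIR10) and stringtie with prepDE.py3 for counting over Araport11 genes. Tool versions are not given in the sources used here. The deposited expected counts are whole numbers, not normalized, with 22635808 to 33474422 per library. The deposited TPM values, scaled by length and library by the authors, were used only in an alternative. Entries without a gene name (77, from 0.00191% to 0.00266% of the counts of a library) were left out.

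Counts were filtered by filterByExpr, scaled by TMM (factors from 0.925 to 1.09) and fitted in edgeR 4.0.16 (R 4.3.3) by its quasi-likelihood test, with the 6 libraries fitted together, 1 coefficient per genotype, and 3 residual degrees of freedom. p-values were adjusted by Benjamini-Hochberg over all genes tested. Each adjusted p is from this fit unless DESeq2 1.42.0, the replicate block or the omission of a library is named, which were separate fits. The biological coefficient of variation was 10.7%. The p-values measure the spread between 2 samples a group. Overlapping or near-identical genes may share reads. Gene positions, names and sequences are from RefSeq's TAIR10.1, whose nuclear chromosomes are as long as those of TAIR10, and sequences were read in Python 3.11.15. The binding oligos are the study's. Alternatives changed the tool (also limma 3.58.1 on TPM), scaling, filter and samples.

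Named genes were *VAL1* and *VAL2*, the genes the study names, the 15 most different DEGs in each direction (mean of at least 5 CPM, no overlap between groups), per list up to 6 called members with the largest change and any member of short lists, and tested genes within 100 kb of *VAL1* and *VAL2*. *MYC2*, *CBF2*, *ESM1*, *AOC3*, *OPR3*, *SAUR50*, *VAL3*, *EXLB3* and *CAB1* fall outside this rule and were named after their values were seen. The lists and members were chosen with earlier results of these data known.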

Additional observations from a re-analysis of the deposited data

Results flagged for a closer look

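Organelle genes stood outside the contrast, and their share of the counts was above the WT range in some libraries labelled *val2*. Chloroplast genes took 0.0102% of the counts in the second of these libraries, against 0.00534% to 0.00785% in WT. The first, at 0.00655%, was within the WT range. Mitochondrial genes took 0.000113% and 0.000104% in the first and second of them, against 8.96e-05% to 9.39e-05% in WT. At such shares very few counts of a library are mitochondrial, and whether the difference exceeds counting noise was not tested.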

How the results depend on the processing

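The 2560 DEGs became 1006 (313 higher, 693 lower) when the test was set against a 2-fold change (glmTreat), and with log2(TPM + 1) the DEGs lower in *val1* were 918. Scaling by library size alone gave 5874 genes higher in *val1* at any size. Leaving out 1 library at a time gave 2030 to 2531 DEGs, 807 to 1088 of them higher and 1223 to 1454 lower, and at any size 4818 to 7268 genes, 2159 to 3620 of them higher and 2659 to 3648 lower. The lowest counts at any size, 4818 in all and 2159 higher, came without the second library labelled *val2*. *VAL1* ranged from -1.53 to -1.20 and *VAL2* from -2.13 to -1.99 in these refits. Of the 2560 DEGs, 2325 remained in DESeq2, 2540 with its size factors in edgeR and 2301 with library size alone. The replicate numbers did not pair the libraries (correlations from 0.0309 to 0.0406). With the replicate block 2511 DEGs remained, and of 129 named genes 1 crossed the threshold (*GA20OX2*, adjusted p = 0.0711).

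Of the 129 named genes, 110 kept their side under all alternatives run, 13 lost their call under at least 1, and 3 gained one. None of the 4 that changed sign had passed the test. *FLM* was at 0.085 with library size alone, at 0.143 and 0.145 with TPM, and from -0.128 to 0.01 with 1 library left out. In the last refits *SVP* ranged from -0.018 to 0.204, *FSD1* from -0.148 to 0.249 and *MYC2* from -10.164 to 13.4. Of 46 list medians, 5 changed sign under some alternative, namely DELLA and receptor genes, heat shock, *XTH*, seed, and Polycomb and VAL genes. The causes were not tested. With 2 samples a group, differences at a few CPM are the least certain.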
